A study of Mus musculus with 2 samples.

Results

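The genes described here encode the proteasome, the barrel-shaped protease that degrades ubiquitin-tagged proteins. They were taken by symbol, as every mouse gene whose name starts with Psma, Psmb, Psmc, Psmd or Psme followed by a number, and 45 of 32285 genes in the count matrices matched. Of these, 5 form the immunoproteasome group (Psmb8, Psmb9, Psmb10, Psme1 and Psme2), 38 are other subunits or regulators, and 2 were kept apart. The pair kept apart are Psmc3ip, which shares only the prefix, and Psme2b, an intronless copy of Psme2 whose reads may be split with it. All 45 genes are accounted for: Psmb11, the catalytic subunit of thymic cortical epithelium, had 0 UMIs in the cells studied, and Psma8, a testis subunit, had 18 UMIs in the LC427 library and 25 UMIs in the vehicle library.

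The study sequenced RNA of single cells from tumours of MC38, a colon carcinoma line of mouse origin, implanted in female C57BL/6 mice given LC427, a compound known here by its code name, or vehicle. Tumours were taken on day 14, dead cells were removed, and cells with the leucocyte protein CD45 were selected on beads before capture with 10x 5′ chemistry. There was 1 library per group; dose, age and how many animals were pooled are not given in the sources used here. The series title concerns LRBA and the degradation of CTLA4, a brake on T cells, and the comparison here is LC427 against vehicle.

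The proteasome core, called 20S, is a stack of rings of alpha and beta subunits, of which 3 kinds of beta subunit cut peptide bonds. Interferon gamma is known to induce Psmb8, Psmb9 and Psmb10, which replace the constitutive catalytic subunits Psmb5, Psmb6 and Psmb7, and the PA28 cap made of Psme1 and Psme2. The resulting immunoproteasome produces peptides suited to display on MHC class I, and many haematopoietic cells carry it without stimulation. The 19S cap, built of Psmc ATPases and Psmd non-ATPases, recognises and unfolds ubiquitinated proteins.

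With 1 library a group no test between the groups is possible, no p-value is given, and every difference is without a replicate check. Levels are UMIs summed over the cells of a class and scaled to the UMI total of that class (CPM). Values in parentheses after a ratio are 95% intervals that cover counting error only, and since the UMIs of a cell are not independent they are too narrow. The LC427 library held 28732435 UMIs and the vehicle library 33711726, and after filtering 6328 LC427 cells with a median of 2424.5 UMIs and 5245 vehicle cells with a median of 3560 UMIs remained. The libraries shared 49 cell barcodes. Barcodes removed for mitochondrial RNA numbered 12 in LC427 and 137 in vehicle. Cells were put in classes by the UMIs of marker genes, none of them a proteasome gene. The monocyte/macrophage class had 3514 LC427 and 3258 vehicle cells, CD8 T cells 349 and 307, and CD4 T cells 81 and 79. The gates left 1754 LC427 and 986 vehicle cells in no class.

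Some gates went against their labels. Of 204 LC427 and 278 vehicle cells in the NK gate, 127 and 75 also carried at least 2 UMIs of Tm4sf1, Sox9 or keratins, and these deep cells held 92.2% and 76.5% of the gate's UMIs. Their Klra4 UMIs numbered 444 in LC427 and 308 in vehicle, against 0 and 5 UMIs of the defining NK gene Ncr1. Such cells also held 34.7% and 38.1% of the UMIs of the mature regulatory DC gate. A repaired gate, made after these values were seen, leaves Klra4 out of the NK markers and such cells out of every immune class. It kept 62 LC427 and 174 vehicle NK cells and 140 and 123 mature regulatory DC, and NK and mature regulatory DC values below are from it, with the gate as first set beside them. A further class, of 175 LC427 and 81 vehicle cells, had Tm4sf1 or Sox9 UMIs and no Ptprc, the CD45 gene. The keratin genes of its panel were near 0 there: Krt8 had 0 and 1 UMIs and Krt18 had 0 and 0, so the class is called by its genes, Tm4sf1/Sox9 cells, and by no cell type.

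Upstream sequence of the genes is shown because the groups are known for different inducers, interferon-activated factors for the immunoproteasome and NRF1, encoded by Nfe2l1, for the constitutive genes. The 250 bases before each RefSeq start site in GRCm38.p6 were searched on both strands, with overlaps between motifs allowed, for GAAA, any 2 bases and GAAA again (an interferon-stimulated response element core), TTCNNNGAA (a gamma-activated site, GAS) and TGACNNNGC (an antioxidant response element, ARE). Of 32851 such windows, 2.98%, 7.02% and 10.2% held them in that order. Of 5 immunoproteasome genes with a window, 1 held the gamma-activated site motif and 0 held either other motif. Of the other subunits 31 had a window, and 3, 0 and 5 of them held the 3 motifs in the same order. Psmb8 held the gamma-activated site motif, in capitals in the first sequence, at chr17:34198088-34198117 on the plus strand, inside the gene as GENCODE draws it and before the RefSeq start. The windows of Psmb9 and Psme1 also lay inside the gene so drawn, so bases before the GENCODE start were not searched there. Some windows of other subunits did too, such as those of Psmd5, Psmd9 and Psmd13. Psmb5 and Psmb6, constitutive catalytic genes, held the antioxidant motif, in capitals, at chr14:54618023-54618122 on the minus strand and chr11:70525257-70525356 on the plus strand. A match is of letters and not a measured site, and a window without one says nothing of the factor.
Psmb8: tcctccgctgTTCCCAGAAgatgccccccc
Psmb5: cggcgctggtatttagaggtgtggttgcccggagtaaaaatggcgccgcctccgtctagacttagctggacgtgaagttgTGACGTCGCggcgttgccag
Psmb6: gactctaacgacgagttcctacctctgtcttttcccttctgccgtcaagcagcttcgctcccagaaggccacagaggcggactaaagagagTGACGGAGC

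Immunoproteasome RNA differed more between classes than the other subunits did. The 5 genes together had 3082 CPM in LC427 and 3488 CPM in vehicle mature regulatory DC, the Ccr7+ dendritic cells that have taken up antigen and matured. In conventional dendritic cells (cDC), with 40 and 46 cells, they had 2824 and 2867 CPM. Among the other classes the level was 1980 and 1833 CPM in CD4 T cells, 1726 and 1468 CPM in the monocyte/macrophage class, 1693 and 1326 CPM in CD8 T cells, and 1640 and 1024 CPM in NK cells. Tm4sf1/Sox9 cells were lowest in LC427, with 753 CPM, while their 1295 CPM in vehicle lay above vehicle NK cells. In both libraries the mature regulatory DC and cDC levels lay above every other class named here with intervals apart. The other subunits together ranged only from 3026 to 4307 CPM in LC427 and from 2421 to 4921 CPM in vehicle over the same classes, and were highest in Tm4sf1/Sox9 cells in both libraries.

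**Figure D1:**
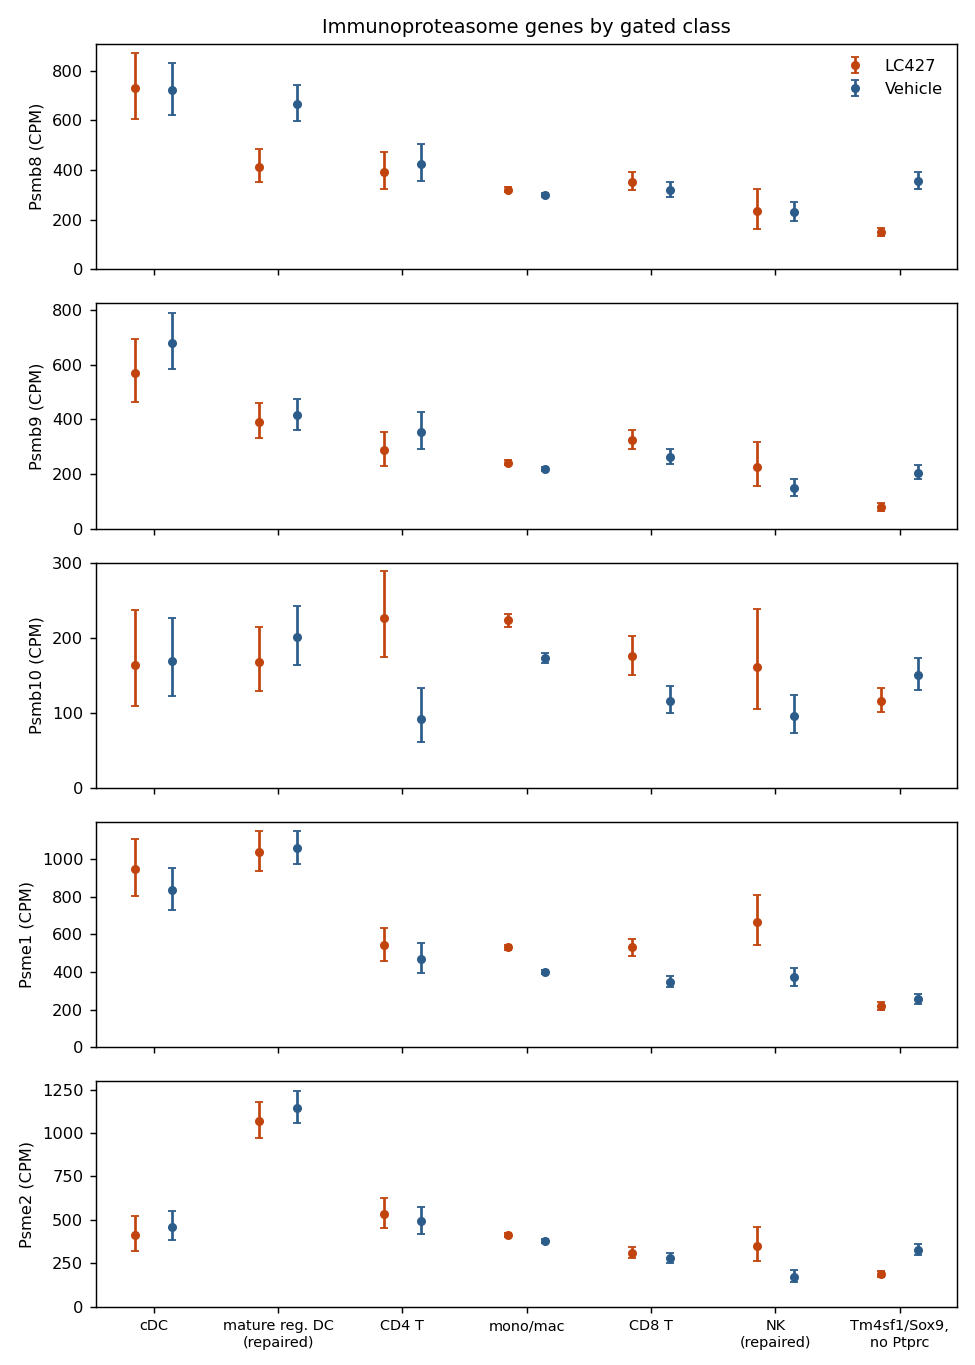
Level of each immunoproteasome gene (y axis, CPM) by gated class (x axis), LC427 in orange and vehicle in blue, 1 library each; bars are exact Poisson 95% intervals. Psme2 is at 1071 and 1147 CPM in mature regulatory DC, and at 534 CPM or less in every other class drawn.

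The 5 genes did not share 1 order over the classes. Psme2 (ENSMUSG00000079197; GRCm38 chromosome 14, 55587441 to 55591113, minus strand), the beta subunit of PA28, had 1071 CPM in LC427 and 1147 CPM in vehicle mature regulatory DC, against 412 and 462 CPM in cDC. Psmb8 (ENSMUSG00000024338; chromosome 17, 34197721 to 34201454, plus strand), also called LMP7, had 413 CPM in LC427 and 667 CPM in vehicle mature regulatory DC, against 730 and 720 CPM in cDC. Psmb9 (ENSMUSG00000096727; chromosome 17, 34181987 to 34187764, minus strand), or LMP2, which lies near Psmb8 in the MHC region, had 392 and 416 CPM in mature regulatory DC and 571 and 681 CPM in cDC. Psme2 was thus higher in mature regulatory DC, and Psmb9 higher in cDC, with intervals apart in both libraries, while Psmb8 had intervals apart in LC427 alone. No such order was seen for Psmb10 (ENSMUSG00000031897; chromosome 8, 105935735 to 105938444, minus strand), or MECL-1. Psmb10 had 168 and 201 CPM in mature regulatory DC and 165 and 169 CPM in cDC, against 227 and 92.6 CPM in CD4 T cells and 224 and 173 CPM in the monocyte/macrophage class. Psme1 (ENSMUSG00000022216; chromosome 14, 55578123 to 55581529, plus strand), the alpha subunit of PA28, had 1039 and 1058 CPM in mature regulatory DC and 947 and 835 CPM in cDC.

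Set against the other subunits, which removes the scaling to CPM, mature regulatory DC held the most immunoproteasome RNA and Tm4sf1/Sox9 cells the least. Mature regulatory DC had 1.02 immunoproteasome UMIs per other-subunit UMI in LC427 and 1.21 in vehicle, and cDC had 0.720 and 0.759. Psme1 and Psme2 gave 792 of the 1157 LC427 and 1161 of the 1837 vehicle immunoproteasome UMIs in mature regulatory DC. In cDC they gave 231 of 480 and 337 of 745. CD4 T cells had 0.538 and 0.598, CD8 T cells 0.469 and 0.417, and the monocyte/macrophage class 0.455 and 0.420. With the repaired gate CD4 T cells had 0.609 and 0.613. Tm4sf1/Sox9 cells had 0.175 and 0.263. For the first catalytic pair, Psmb8 UMIs per Psmb5 UMI were 3.37 and 6.5 in mature regulatory DC, 1.82 and 1.81 in the monocyte/macrophage class, and 0.808 and 1.58 in Tm4sf1/Sox9 cells. These quotients compare classes and libraries, since UMIs of different genes are not on 1 scale per transcript.

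**Figure D2:**
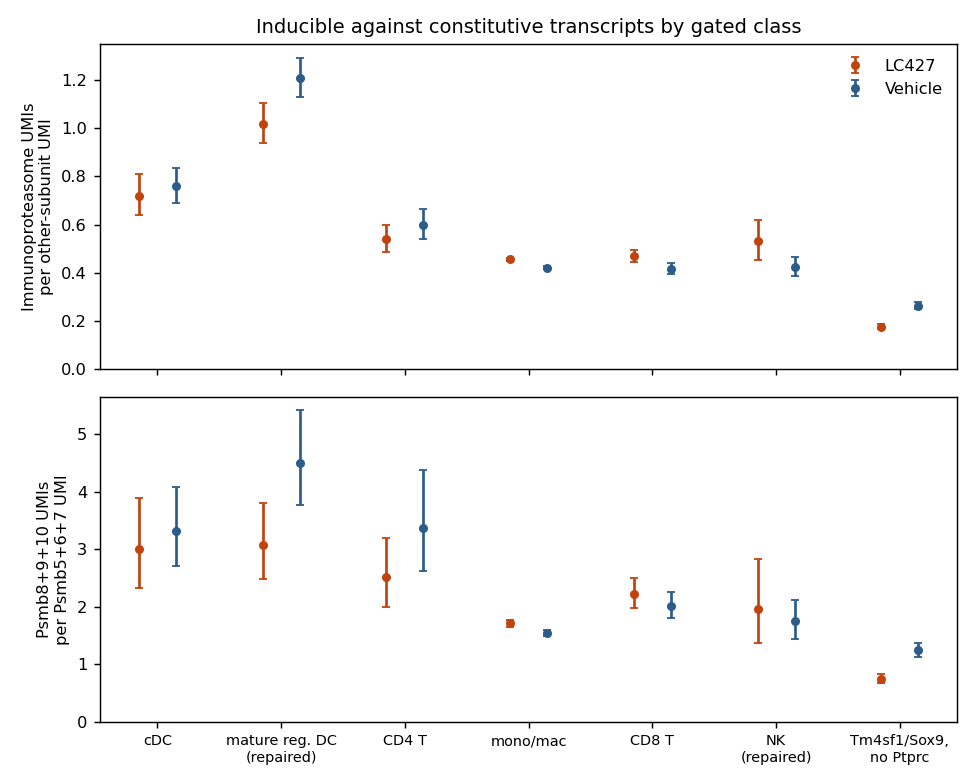
UMIs of the 5 immunoproteasome genes per UMI of the other subunits (upper panel) and of Psmb8, Psmb9 and Psmb10 per UMI of Psmb5, Psmb6 and Psmb7 (lower panel), by gated class, LC427 in orange and vehicle in blue; bars are 95% intervals for counting error. In the upper panel mature regulatory DC are highest at 1.02 and 1.21, and Tm4sf1/Sox9 cells lowest at 0.175 and 0.263.

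In the monocyte/macrophage class, the largest, all 5 immunoproteasome genes had ratios of LC427 to vehicle above 1, as did 62.6% of all genes. Psme1 had 531 CPM in LC427 and 399 CPM in vehicle, a ratio of 1.33 (1.28 to 1.38), and Psmb10 had 224 and 173 CPM, a ratio of 1.29 (1.23 to 1.37). Psmb9 had 241 and 217 CPM, a ratio of 1.11 (1.05 to 1.16), Psme2 411 and 378 CPM, a ratio of 1.09 (1.05 to 1.13), and Psmb8 321 and 300 CPM, a ratio of 1.07 (1.02 to 1.11). The summed ratio was 1.18 (1.15 to 1.20), against 1.09 (1.07 to 1.10) for the other subunits. The median log2 ratio over all genes of the class was 0.12, and relative to it the summed ratios were 1.08 for the immunoproteasome and 1.00 for the other subunits. Empty droplets, barcodes of 10 to 100 UMIs that hold free RNA, had ratios of 1.38 (1.32 to 1.44) and 1.31 (1.28 to 1.35) for these groups, with a median log2 ratio over all genes of 0.24, and 552 and 341 CPM of Psme1. Of 43 members measured there, 5 were at least 1.5-fold higher in LC427, against 16.7% of all genes, and 0 lower, against 3.98%. The macrophage markers that no gate uses (Lyz2, Apoe and C1qb) summed to 6959 CPM in LC427 and 10487 CPM in vehicle in the class, with all 3 lower in LC427. The part of free RNA and of these markers in the class ratios was not tested.

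No proteasome gene was 1.5-fold apart in the monocyte/macrophage class: 0 of 44 measured were at least 1.5-fold higher in LC427, against 10.3% of all genes, and 0 were 1.5-fold lower, against 6.99%. The caps and the core differed in their sums, and the counts above 1 that follow stand against 62.6% of all genes. All 6 ATPases of the 19S cap had ratios above 1, with 449 CPM in LC427 and 341 CPM in vehicle, a ratio of 1.32 (1.27 to 1.37), and the 11 non-ATPases, with 10 above 1, had 1011 and 881 CPM, a ratio of 1.15 (1.12 to 1.18). The constitutive 20S genes had 2170 and 2128 CPM, a ratio of 1.02 (1.00 to 1.04), with 8 of 14 above 1, a share near that of all genes. Highest among the other subunits were the ATPases Psmc5, with 92.5 and 63.1 CPM and a ratio of 1.47, and Psmc3, with 161 and 110 CPM and a ratio of 1.46, followed by the lid subunit Psmd6 at 82.4 and 58.2 CPM and a ratio of 1.42. Lowest were the beta-ring genes Psmb2, with 94.7 and 129 CPM and a ratio of 0.736, and Psmb1, with 129 and 153 CPM and a ratio of 0.845, and the lid subunit Psmd8 at 117 and 146 CPM and a ratio of 0.796. The longest transcript had a median of 1983 bases in 17 19S genes and 1311 bases in 17 20S genes. These 20S genes include the inducible catalytic genes, unlike the constitutive 20S sum above. Over 42 members length and log2 ratio had a Spearman rho of 0.209, across genes of 1 pair of libraries.

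The constitutive catalytic genes showed no common shift in that class. Psmb7 (trypsin-like site; ENSMUSG00000026750; chromosome 2, 38588036 to 38644087, minus strand) had 105 CPM in LC427 and 76.1 CPM in vehicle, a ratio of 1.38 (1.27 to 1.49). Psmb6 (caspase-like site; ENSMUSG00000018286; chromosome 11, 70525367 to 70527858, plus strand) had 177 and 205 CPM, a ratio of 0.864 (0.816 to 0.913). Psmb5 (chymotrypsin-like site; ENSMUSG00000022193; chromosome 14, 54614119 to 54618022, minus strand) had 176 and 166 CPM, a ratio of 1.06 (1.00 to 1.13). Of the other caps, Psme3, or PA28 gamma, a nuclear cap, had 37.5 and 32.5 CPM, a ratio of 1.16 (1.01 to 1.32), and Psme4, or PA200, had 48.3 and 35.1 CPM, a ratio of 1.38 (1.22 to 1.55). Psma7 and Psmb4, core genes with the most UMIs among the other subunits, had 319 and 285 CPM and 264 and 223 CPM over all cells. The copy Psme2b had 23.8 and 18.9 CPM in the monocyte/macrophage class, a ratio of 1.26, and Psmc3ip 4.11 and 4.14 CPM. Psma8 and the assembly chaperone Psmd10, apart from Psmb11, had the fewest, with 0.785 and 0.921 CPM and 24.1 and 25.5 CPM over all cells.

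CD8 T cells had all 5 immunoproteasome genes above 1 as well, as did 52.9% of all genes. Psme1 had 531 CPM in LC427 and 349 CPM in vehicle, a ratio of 1.52 (1.35 to 1.72), and Psmb10 had 176 and 117 CPM, a ratio of 1.51 (1.22 to 1.87). Psmb9 had 324 and 263 CPM, a ratio of 1.23 (1.06 to 1.43), and the intervals of Psmb8, 352 and 319 CPM, and of Psme2, 311 and 279 CPM, included 1. Summed, the ratio was 1.28 (1.20 to 1.36), against 1.13 (1.09 to 1.18) for the other subunits. Of 43 members measured, 6 were at least 1.5-fold higher in LC427, against 13.2% of all genes, a share near the background, and 2 were 1.5-fold lower, against 10.6%. Besides Psme1 and Psmb10 the higher genes were of the 19S cap: Psmc3 with 219 and 121 CPM and a ratio of 1.80 (1.47 to 2.21), Psmc5 with 112 and 63.6 CPM and a ratio of 1.76 (1.33 to 2.34), Psmc1 with 65.7 and 41.0 CPM and a ratio of 1.60 (1.12 to 2.31), and the lid subunit Psmd13 with 161 and 101 CPM and a ratio of 1.59 (1.27 to 2.00). The lower ones were Psmd9 and Psmc3ip, both under 50 CPM. Some markers of other cells were also higher in these LC427 CD8 T cells: the 3 macrophage markers summed to 518 CPM in LC427 and 278 CPM in vehicle. The 3 antigen-presenting cell markers, H2-Aa, Cd74 and Wdfy4, which the monocyte/macrophage class also carries, summed to 2493 and 1457 CPM, and the T cell markers Thy1, Lck and Cd2 to 1007 and 1313 CPM. The NK markers Gzma, Klrk1 and Prf1 summed to 481 and 645 CPM. All 3 genes of each of these lists had the direction of its sum. The neutrophil markers S100a8, S100a9 and Retnlg summed to 21.6 and 4.94 CPM, with 2 higher and 0 lower. The plasmacytoid DC markers Bst2 and Irf8 summed to 415 and 478 CPM, with 1 higher and 1 lower. The part of these markers in the CD8 T ratios was not tested.

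CD4 T cells, including regulatory T cells, did not show a common direction of the group. Psmb10 had 227 CPM in LC427 and 92.6 CPM in vehicle, a ratio of 2.45 (1.56 to 3.94), from 65 and 29 UMIs. Psmb8 had 391 and 425 CPM and Psmb9 286 and 355 CPM, ratios of 0.921 (0.710 to 1.19) and 0.808 (0.600 to 1.08). The summed ratio of 1.08 (0.960 to 1.22) had an interval that included 1, and the other subunits had 1.20 (1.10 to 1.31). Of 37 members measured, 8 were at least 1.5-fold higher, against 16.3% of all genes, and 1 was 1.5-fold lower, against 13.4%. The repaired gate took 2 LC427 cells and 1 vehicle cell out and 1 LC427 cell in, and those counts were then 4 and 1, against 14.8% and 14.0%. The lowest log2 ratio of the 5 immunoproteasome genes was then -0.09, against -0.31 before. Immunoproteasome UMIs per other-subunit UMI were then 0.609 in LC427 and 0.613 in vehicle, a ratio of 0.994 (0.858 to 1.15). That contrast thus moved with a few cells, since with the gate as first set the ratio was 0.901 (0.779 to 1.04). Psmb10, the 19S base subunit Psmd1, with a ratio of 2.24 (1.30 to 3.97) and 150 and 67.1 CPM, and the beta-ring gene Psmb1, with 97.8 and 172 CPM and a ratio of 0.567 (0.346 to 0.911), were those whose intervals excluded 1. For Psmd8, Psmd11, Psma6, Psmd7, Psmb6 and Psmd3, at ratios of 1.51 to 2.19, the intervals included 1. The macrophage markers summed to 845 CPM in LC427 and 767 CPM in vehicle CD4 T cells, with 2 higher in LC427 and 1 lower. The antigen-presenting cell markers summed to 4704 and 6161 CPM and the T cell markers to 775 and 1083 CPM, with all 3 of each list lower. The NK markers Gzma, Klrk1 and Prf1 summed to 80.3 and 44.7 CPM. The neutrophil markers S100a8, S100a9 and Retnlg summed to 45.4 and 6.39 CPM. All 3 genes of these last lists were higher in LC427. The part of these markers was not tested.

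NK cells, by the repaired gate, had all 5 genes above 1, as did 54.6% of all genes. Some markers of other cells were also higher in these LC427 cells: the macrophage markers summed to 947 CPM in LC427 and 238 CPM in vehicle, and the antigen-presenting cell markers to 2302 and 500 CPM, with all 3 of each list higher. The neutrophil markers summed to 0 and 24.1 CPM, with 2 lower and 0 higher. The T cell markers summed to 785 and 820 CPM, with 1 higher and 2 lower. The plasmacytoid DC markers Bst2 and Irf8 summed to 700 and 926 CPM, with 1 higher and 1 lower. The part of these markers in the NK ratios was not tested. Psme2 had 350 CPM in LC427 and 174 CPM in vehicle, a ratio of 2.02 (1.43 to 2.82), from 54 and 108 UMIs, and Psme1 had 668 and 373 CPM, a ratio of 1.79 (1.41 to 2.27). Psmb10 had 162 and 96.5 CPM, a ratio of 1.68 (1.01 to 2.72), Psmb9 227 and 150 CPM, a ratio of 1.52 (0.998 to 2.26), and Psmb8 233 and 232 CPM, a ratio of 1.01 (0.679 to 1.46). The summed ratio was 1.60 (1.38 to 1.86), and that of the other subunits 1.28 (1.15 to 1.42). The gate as first set gave 0.611 (0.576 to 0.648) and 0.910 (0.887 to 0.932), the opposite direction, with most of its UMIs from cells that carry Tm4sf1 or Sox9. Of 38 members measured with the repaired gate, 13 were at least 1.5-fold higher, against 21.0% of all genes, and 1 was lower, against 18.0%. With the gate as first set 0 of 43 were higher, against 11.7%, and 4 lower, against 12.5%, Psmb8, Psmb9, Psmb1 and Psmb2, at ratios of 0.436 to 0.663. Of the other subunits in the repaired gate, Psmc3, Psmc5 and Psmd6 had ratios of 1.83, 2.39 and 2.39 with intervals above 1, from 16 to 24 LC427 UMIs. The remaining ones 1.5-fold apart at 50 CPM or more (Psma1, Psma5, Psma6, Psmd2, Psmd4, Psmd8 and Psmd13) had intervals that included 1.

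**Figure D3:**
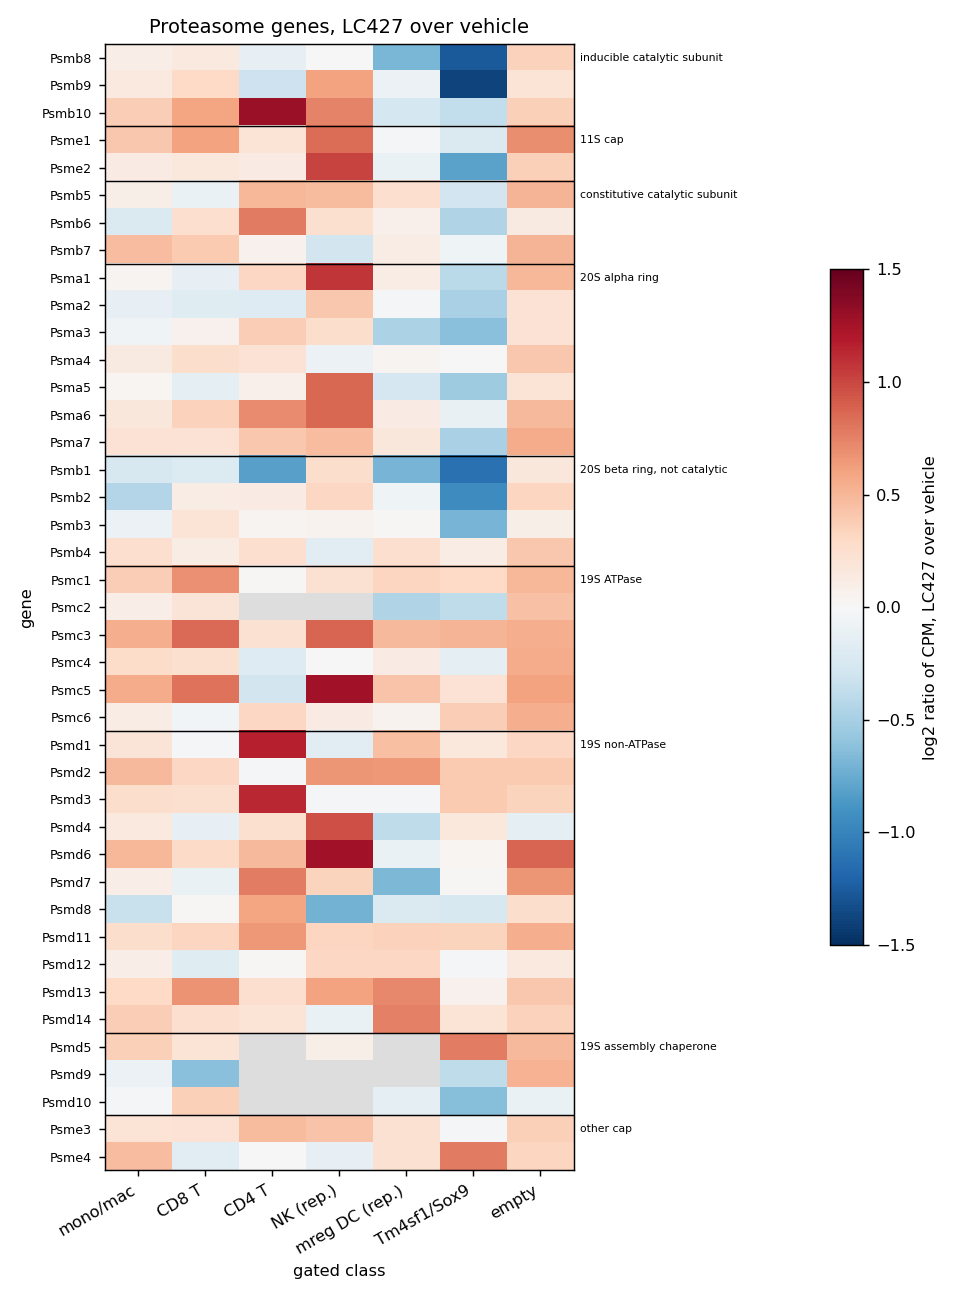
Log2 ratio of CPM, LC427 over vehicle (colour, red higher in LC427, blue lower), for proteasome genes (rows, by role) in gated classes and in empty droplets (columns); grey marks under 20 UMIs and rep. a repaired gate. Psmb8 and Psmb9 are blue in Tm4sf1/Sox9 cells, at ratios of 0.419 and 0.383. In the empty droplets 5 of 5 immunoproteasome genes and 34 of 36 measured other subunits were above 1, against 74.2% of all genes.

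In mature regulatory DC all 5 ratios were below 1, where 51.5% of all genes were above 1, and only the interval of Psmb8 excluded 1. The antigen-presenting cell markers summed to 8479 CPM in LC427 and 6608 CPM in vehicle and the macrophage markers to 463 and 247 CPM, with all 3 of each list higher. The neutrophil markers summed to 18.6 and 120 CPM, with 2 lower and 0 higher. The T cell markers summed to 32.0 and 77.9 CPM, with 2 higher and 1 lower, and the NK markers to 98.6 and 122 CPM, with 1 higher and 2 lower. The part of these markers was not tested. Psmb8 had 413 CPM in LC427 and 667 CPM in vehicle, a ratio of 0.619 (0.509 to 0.75), from 155 and 351 UMIs, and the other 4 genes had ratios of 0.834 to 0.982. The summed ratio was 0.884 (0.820 to 0.951), against 1.05 (0.970 to 1.13) for the other subunits, and 0.853 (0.796 to 0.914) and 1.08 (1.02 to 1.14) with the gate as first set. Of 40 members measured, 3 were at least 1.5-fold higher, against 14.4% of all genes, and 3 lower, against 15.3%. The higher ones were the 19S genes Psmd2 (125 and 79.8 CPM, a ratio of 1.57), Psmd13 (109 and 66.5 CPM, a ratio of 1.64) and Psmd14, a deubiquitinase of the lid (77.2 and 45.6 CPM, a ratio of 1.69), and the lower ones besides Psmb8 were Psmb1 (117 and 190 CPM, a ratio of 0.617) and Psmd7 (45.3 and 72.2 CPM, a ratio of 0.628). The intervals of Psmd14 and Psmd7 included 1. With the gate as first set 7 of 42 were higher, against 16.3%, and 2 lower, against 15.3%, and Psmd1, Psmd12 and Psmc3 were then among the higher at 1.63 to 1.67. Conventional DC had too few cells for a comparison under the minimum of 50 cells, and their Psmb8 was 730 and 720 CPM.

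Tm4sf1/Sox9 cells had the lowest LC427 ratios of the group. Psmb9 had 78.7 CPM in LC427 and 205 CPM in vehicle, a ratio of 0.383 (0.311 to 0.471), Psmb8 had 149 and 356 CPM, a ratio of 0.419 (0.360 to 0.488), and Psme2 had 188 and 327 CPM, a ratio of 0.574 (0.497 to 0.663). Psmb10 had 116 and 151 CPM, a ratio of 0.772 (0.634 to 0.942), and Psme1 220 and 256 CPM, a ratio of 0.863 (0.745 to 1.00). The summed ratio was 0.581 (0.541 to 0.624), against 0.875 (0.847 to 0.905) for the other subunits. Of 43 members 2 were at least 1.5-fold higher, against 14.4% of all genes, and 8 lower, against 12.9%, and 3 of the 8 were of the immunoproteasome. In the repaired gate, with 277 and 138 cells, the summed ratio was 0.566 (0.537 to 0.596), and 1 was higher, against 9.09%, and 10 lower, against 11.1%; the core and 19S ratios were 0.714 and 1.05.

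The core was lower and the 19S cap was not in these Tm4sf1/Sox9 cells. The constitutive 20S genes had 2230 CPM in LC427 and 3058 CPM in vehicle, a ratio of 0.729 (0.698 to 0.762), with 13 of 14 below 1 and 54.1% of all genes above 1, and the 19S genes had 1845 and 1654 CPM, a ratio of 1.12 (1.06 to 1.18), with 13 of 17 above 1. Among core genes 1.5-fold lower were Psmb1 with 130 and 282 CPM and a ratio of 0.462, Psmb2 with 112 and 216 CPM and a ratio of 0.519, Psmb3 with 142 and 230 CPM and a ratio of 0.619, and Psma3 with 176 and 272 CPM and a ratio of 0.647. The 19S chaperone Psmd5 had 65.2 and 38.5 CPM, a ratio of 1.70 (1.21 to 2.41), and the cap Psme4 56.6 and 33.1 CPM, a ratio of 1.71 (1.19 to 2.50). These cells had a median of 9036 UMIs in LC427 and 14533 in vehicle, and markers of immune cells were lower in LC427 too. The macrophage markers summed to 28.6 CPM in LC427 and 70.0 CPM in vehicle, the antigen-presenting cell markers to 126 and 352 CPM, and the neutrophil markers S100a8, S100a9 and Retnlg to 0 and 47.7 CPM. Of these 9 genes Wdfy4 alone was higher in LC427, and Retnlg had 0 UMIs in both. The part of depth and of these markers was not tested. Across 6 classes (monocyte/macrophage, CD8 T, CD4 T, NK and mature regulatory DC by repaired gate, and Tm4sf1/Sox9) 37 members had 20 UMIs in each; 4 had ratios above 1 in all 6, Psmc1, Psmc3, Psmd11 and Psmd13, and 0 were below 1 in all 6. That is 10.8% of the 37, against 12.5% of the 2966 genes with as many UMIs, a share near the background, and 7.69% of those genes were below 1 in all 6.

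Other genes of the pathway were taken as 3 lists. Of 13 genes of assembly and regulation, 0 were 1.5-fold apart in the monocyte/macrophage class and 13 were above 1, with a median log2 ratio of 0.27, against 0.12 over all genes. Pomp, the core's maturation factor, had 399 CPM in LC427 and 339 CPM in vehicle, and Nfe2l1 had 89.6 and 67.4 CPM. Of 6 genes that supply or activate ubiquitin 3 were above 1, 0 were at least 1.5-fold higher and 1 was 1.5-fold lower, against 6.99% of all genes, with a median log2 ratio of -0.17. Of 9 genes of interferon induction and peptide supply 8 were above 1, against 62.6% of all genes, and 2 were at least 1.5-fold higher, against 10.3%: Nlrc5, the MHC class I transactivator, with 43.6 and 28.6 CPM and a ratio of 1.53 (1.34 to 1.74), and the peptide transporter gene Tap2 with 172 and 109 CPM and a ratio of 1.58 (1.48 to 1.69). Tap1, the transporter's other gene, had 161 and 121 CPM, Irf1, an interferon-induced transcription factor, 84.7 and 83.7 CPM, and B2m, the MHC class I light chain, 1806 and 2335 CPM, a ratio of 0.773 (0.760 to 0.787). In Tm4sf1/Sox9 cells 8 genes of this last list were measured and all 8 were below 1, 3 of them by at least 1.5-fold, against 12.9% of all genes, with a median log2 ratio of -0.49, against 0.05 over all genes. Irf1 had 73.3 and 112 CPM there, a ratio of 0.657 (0.516 to 0.836). The median over the same list was 0.27 in the monocyte/macrophage class, 0.20 in NK cells, 0.16 in CD8 T cells and 0.10 in mature regulatory DC. Over all genes the medians were 0.12, 0.06, 0.03 and 0.02 in that order. Above 1 were 5 of 9 in NK cells, 6 of 9 in CD8 T cells and 5 of 9 in mature regulatory DC. The shares of all genes above 1 there were 54.6%, 52.9% and 51.5%. In NK cells 2 were at least 1.5-fold higher and 1 lower, against 21.0% and 18.0% of all genes. In mature regulatory DC 1 was higher and 2 lower, against 14.4% and 15.3%. In CD4 T cells the median was -0.21, against 0.02 over all genes, with 7 of 9 below 1 where 52.5% of all genes were above 1. There 2 were at least 1.5-fold lower, against 13.4% of all genes. With the repaired CD4 T gate the median was -0.14, and 1 was at least 1.5-fold lower, against 14.0%.

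Within the monocyte/macrophage class, immunoproteasome RNA went with Cxcl9, a chemokine gene induced by interferon gamma, in both libraries. Cells with a Cxcl9 UMI, 1678 in LC427 and 1425 in vehicle, had 2055 and 1758 CPM of the group, and cells with none had 1329 and 1171 CPM. The level with Cxcl9 over that without was 1.55 (1.5 to 1.59) in LC427 and 1.5 (1.46 to 1.54) in vehicle, against 1.10 (1.08 to 1.12) and 1.14 (1.12 to 1.16) for the other subunits. Psme2 had the largest such ratio of the 5 genes, 1.80 and 1.63, and the other 4 lay between 1.42 and 1.53. Cells with a Cxcl9 UMI were deeper, with medians of 3016.5 and 4694 UMIs, against 2289 and 3375 UMIs in those without. Between the libraries the group's ratio was 1.17 (1.14 to 1.20) in cells with Cxcl9 and 1.14 (1.10 to 1.17) in cells without.

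Cells with Ly6c2 also had more of it than cells with C1q. Cells with Ly6c2, a gene of inflammatory monocytes, and at most 2 UMIs of the complement genes C1q had 2288 CPM in LC427 and 2199 CPM in vehicle. Cells with at least 5 C1q UMIs and no Ly6c2 had 1598 and 1422 CPM. The level in the Ly6c2 cells over the C1q cells was 1.43 (1.36 to 1.51) in LC427 and 1.55 (1.44 to 1.66) in vehicle, against 1.05 (1.01 to 1.10) and 1.11 (1.05 to 1.17) for the other subunits. Of the monocyte/macrophage cells 302 in LC427 and 127 in vehicle were of the Ly6c2 kind, and 1916 and 2331 of the C1q kind. Here the cells with the higher level were the shallower ones, with medians of 1856 and 2584 UMIs, against 3135 and 4514 UMIs in the C1q kind. Within the Ly6c2 kind the libraries had a ratio of 1.04 (0.958 to 1.13), and within the C1q kind 1.12 (1.10 to 1.15).

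Cycling cells showed the other subunits higher. CD8 T cells with at least 2 UMIs of Mki67, Top2a, Birc5 and Cdk1 had 3859 CPM of the other subunits in LC427 and 3420 CPM in vehicle, against 3365 and 2803 CPM in those with none. These are ratios of 1.15 (1.07 to 1.23) and 1.22 (1.14 to 1.30), while the immunoproteasome genes had ratios of 0.905 (0.821 to 0.998) and 0.968 (0.876 to 1.07). Of these genes only Psme1 had intervals apart from 1 in CD8 T cells, at 0.795 (0.665 to 0.949) and 0.793 (0.655 to 0.961). The others lay on both sides of 1, from 0.888 to 1.16, with intervals that included 1. Cycling monocyte/macrophage cells had ratios of 1.10 (1.07 to 1.12) and 1.16 (1.14 to 1.19) for the other subunits, and 1.01 (0.972 to 1.04) and 1.10 (1.07 to 1.13) for the immunoproteasome genes. The 5 genes did not share a direction in this class. Psmb8 had ratios of 1.14 and 1.31 and Psmb9 1.21 and 1.46, above those of the other subunits. Psmb10 had 0.897 and 0.942, Psme1 0.871 and 0.922, and Psme2 1.03 and 1.03. The cycling cells were deeper, with medians of 2656 and 5285 UMIs in CD8 T cells, against 1889.5 and 2492 UMIs in those with none, and 4577.5 and 6496 UMIs in the monocyte/macrophage class, against 2379.5 and 3529 UMIs. The part of depth in these splits was not tested.

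**Figure D4:**
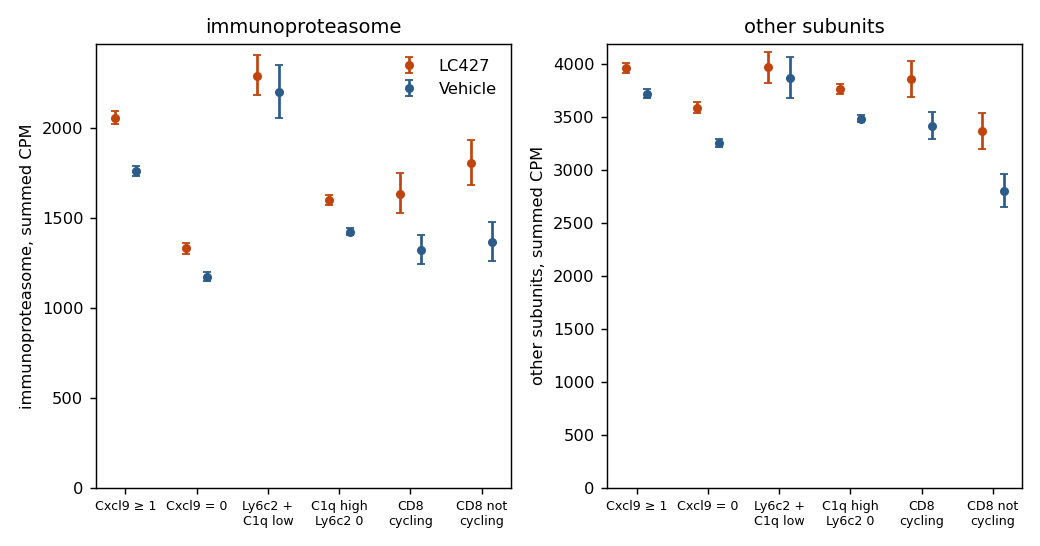
Summed CPM (y axis) of the immunoproteasome genes (left) and the other subunits (right) in parts of the monocyte/macrophage and CD8 T classes (x axis), LC427 in orange and vehicle in blue; bars are exact Poisson 95% intervals. Cells with Cxcl9 sit at 2055 and 1758 on the left, above those without at 1329 and 1171.

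The authors' deposited tables give mean counts per cluster for 44 members in separate clusterings of each library, 11 clusters for LC427 and 13 for vehicle, without the cells behind them. In the authors' deposited table of LC427, cluster 7 had the highest immunoproteasome sum per other-subunit sum, 0.820, and the highest Ccr7 mean, 2.43, and cluster 8, with the highest Tm4sf1 and Sox9 means, had the lowest, 0.159. In the authors' deposited table of vehicle, cluster 12 had the highest quotient, 1.11, and the highest Ccr7 mean, 5.46. In that table the lowest were cluster 8 at 0.147 and cluster 10 at 0.235, the 2 clusters with the highest Tm4sf1 and Sox9 means. Both sums of vehicle cluster 8, 0.41 for the immunoproteasome and 2.80 for the other subunits, were the lowest of the vehicle clusters. Its quotient thus rests on low scaled means, and the counts behind them are not given. Clusters with the most Ccr7 and with the most Tm4sf1 and Sox9 thus stood at the ends of the order, as the gates of those genes did. Clusters and gates come from the same libraries, so they are not independent. Cluster 7 of LC427 and cluster 12 of vehicle also had the highest means of Siglech, a plasmacytoid DC gene, 0.368 and 0.242.

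**Figure D5:**
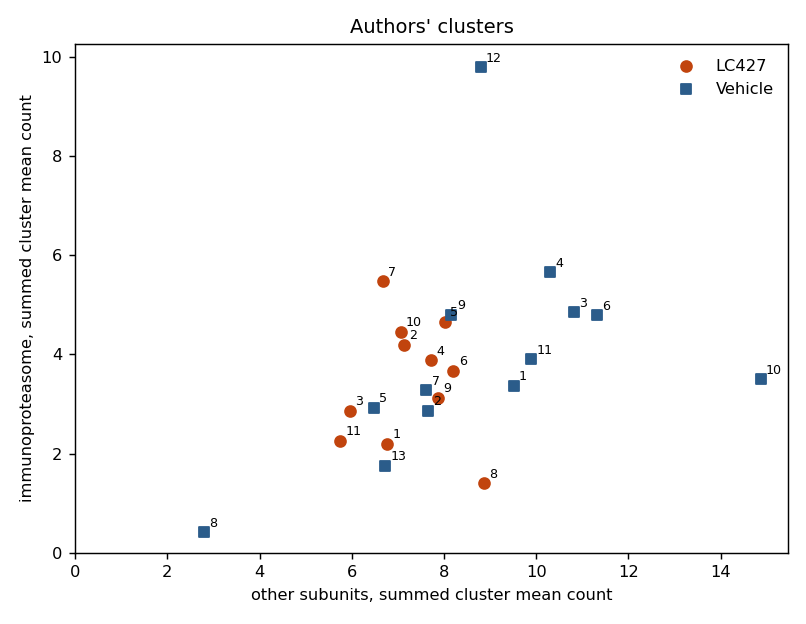
Sum of the authors' cluster mean counts of the 5 immunoproteasome genes (y axis) against that of the other subunits (x axis), each point 1 of the authors' clusters with its number, LC427 as orange circles and vehicle as blue squares; the libraries are scaled to different totals. LC427 cluster 7 and vehicle cluster 12, with quotients of 0.820 and 1.11, lie highest for their place on the x axis.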

How the data were processed

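Per library, the authors deposited an unfiltered matrix of UMI counts and a table per cluster of mean counts (a signal scaled by the authors to 1 total per cluster), log2 fold changes and adjusted p-values. Of that table only the mean counts were used here; the deposited log2 fold changes and p-values were not. Per the submitters' processing notes Cell Ranger 3.0.1, Seurat 3 and GRCm38 (mm10) were used, and Cell Ranger 4 wrote the matrices per the file headers. Groups follow the treatment label.

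Barcodes with at least 1000 UMIs, 400 genes and at most 10% mitochondrial UMIs were called cells and gated on summed marker UMIs (at least 2, or 3 for mature regulatory and plasmacytoid DC, with at most 1 of another lineage). No doublet caller was run; 3 barcodes in each library that met more than 1 gate took none. CPM intervals are exact Poisson and ratio intervals exact conditional binomial (Clopper-Pearson), at 95%, and cover counting error only. Quotients and their ratios have exact conditional and log-scale intervals. Counts of genes used 20 UMIs or more over both libraries and 1.5-fold, and classes compared had at least 50 cells in each library. The calculation of ratios was tested on simulated data. Named genes were the immunoproteasome and constitutive catalytic genes, Psme3, Psme4, members 1.5-fold apart at 50 CPM or more, the 3 highest and lowest in the largest class, and the extremes of level.

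The members, lists and gates were chosen with earlier results of these data known, and the repaired gates and the joint 20S and 19S sums were added after the data were seen. Coordinates are of GENCODE (GRCm38) and sequences of RefSeq (GRCm38.p6). Python 3.11.15, numpy 2.4.6, scipy 1.17.1, pandas 2.3.3 and matplotlib 3.10.9 were used. Some genes of the pathway lists are not reported here.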

Additional observations from a re-analysis of the deposited data

Results flagged for a closer look

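Against ratios above 1 in the monocyte/macrophage and CD8 T classes, 3 classes had summed immunoproteasome ratios of LC427 to vehicle below 1: Tm4sf1/Sox9 cells at 0.581, mature regulatory DC at 0.853 and the NK gate as first set at 0.611. These differences between classes were not tested, since each library is a single sample. The NK value is not one of NK cells, as 92.2% of its LC427 and 76.5% of its vehicle UMIs came from cells with Tm4sf1 or Sox9. With the repaired gate the NK ratio was 1.60, the mature regulatory DC ratio 0.884 and that of Tm4sf1/Sox9 cells 0.566.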

How the results depend on the processing

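No paired analysis was possible because each group has 1 library, and for the same reason no replicate could be left out. Of 222 recomputed values 180 moved within the counting interval (for counts, within 1.5 times), 37 moved further and 5 with a first interval apart from 1 changed direction, all 5 in the NK gate. The CD4 T quotient of 0.901, whose interval included 1, also crossed it, at 1.04 with thinned gates and 1.02 without the top 5% of cells. Every setting but the repaired gates used the marker lists as first set. The repaired-gate values of NK cells and mature regulatory DC were thus not recomputed under any further setting. With repaired gates, added after seeing the data, the NK ratios became 1.60 (immunoproteasome), 1.28 (other subunits) and 1.25 (quotient) with 14 members 1.5-fold apart, the CD4 T count became 5, and the other subunits in Tm4sf1/Sox9 cells 0.840. With gates on cells thinned to 1000 UMIs, NK ratios were 0.999, 1.06 and 0.941 with 13 members, CD4 T 1.22 and the quotient above, Tm4sf1/Sox9 cells 0.630, 0.788 and a quotient of 0.799, and the monocyte/macrophage count 2. Averaging single-cell CPM gave 1.24 and 1.13 (monocyte/macrophage), 0.847 and 1.27 (NK), and 0.646 and 0.912 (Tm4sf1/Sox9). Leaving out the top 5% of cells by UMIs gave 1.11 for the other subunits and a count of 1 (monocyte/macrophage), 0.678 and 0.985 (NK), 0.952, a quotient of 0.921 and a count of 5 (mature regulatory DC), and 0.673, 0.916 and a quotient of 0.735 (Tm4sf1/Sox9). Centring on the median of all genes gave 1.08 and 1.00 (monocyte/macrophage), 0.875 and a count of 8 (NK), and 0.845 for the other subunits (Tm4sf1/Sox9). A minimum of 2000 UMIs gave 0.780 and a quotient of 0.707 (mature regulatory DC) and a CD8 T count of 4. Allowing 0 UMIs of another lineage gave 1.01 for the other subunits of mature regulatory DC and a monocyte/macrophage count of 1. The cause of these shifts was not tested. The immunoproteasome ratio stayed between 1.08 and 1.24 in the monocyte/macrophage class, 1.21 and 1.32 in CD8 T cells and 0.561 and 0.673 in Tm4sf1/Sox9 cells. The classes of under 100 cells carry the widest intervals.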
